A study of Mus musculus with 8 samples.

Results

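The 50 genes described here encode the machinery that licenses, unwinds and copies DNA, and they were chosen by symbol from the rows on primary chromosomes of a table of 52778 rows. All 50 symbols were found, each on a single row, and all 50 passed the filter of a mean of at least 1 TPM (a length-corrected share of each library, scaled to a fixed total) that left 15541 rows for testing. RNA was sequenced from ventricular heart tissue of mouse embryos at embryonic day 11.5, with 4 libraries labelled as conditional knockout (cKO) and 4 labelled as control. In the cKO embryos (Rps19bp1 fl/fl; Xmlc2-Cre +/−) Rps19bp1, whose product is a nucleolar partner of ribosomal protein S19, was to be deleted by a Cre that the series text calls specific to cardiomyocytes, so other cells of the ventricle keep the gene. The alleles of the control embryos are not given beyond the word control, no agent is named for either group, and the genotype field of all 8 libraries names the wild-type C57BL/6 strain. The series text calls the replicates biological, but how many embryos or litters went into a library is not given in the sources used here.

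Before a cell can copy its DNA, the origin recognition complex marks origins in G1, and Cdc6 and Cdt1 load the ring-shaped MCM2-7 helicase there, a step called licensing that geminin blocks once S phase begins. The kinase Cdc7 with its activator Dbf4 then allows Cdc45 and the GINS complex to join the ring, which turns it into the working helicase. Behind it, polymerase alpha-primase lays down primers, polymerase epsilon and polymerase delta extend the strands on the PCNA clamp, nucleases and a ligase join the lagging strand, and chromatin assembly factor 1 places histones on the new DNA. Many of these genes are targets of E2F transcription factors and are transcribed in dividing cells, and cardiomyocytes of the midgestation ventricle still divide.

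The promoters shown were picked partly for their letters. Clspn and Mcm6 are the called members with the smallest p among those whose window holds an E2F word, and Orc5 is 1 of the members with the largest p. Pola2, with a smaller p than Mcm6, held neither an E2F word nor a CCAAT box and is not printed, so these sequences show what the words look like and not how they go with the change. The sequences are from RefSeq on GRCm38.p6, run 5′ to 3′ on the gene's strand from 250 bases before to 50 bases after an annotated start, and carry in capitals each match to the E2F word (TTTNNCGC with G or C at each N) or to the CCAAT box (CCAAT) on either strand. The windows are chr4:126556730-126557029 on the plus strand for Clspn, chr1:128359656-128359955 on the minus strand for Mcm6 and chr5:22550289-22550588 on the minus strand for Orc5.
Clspn: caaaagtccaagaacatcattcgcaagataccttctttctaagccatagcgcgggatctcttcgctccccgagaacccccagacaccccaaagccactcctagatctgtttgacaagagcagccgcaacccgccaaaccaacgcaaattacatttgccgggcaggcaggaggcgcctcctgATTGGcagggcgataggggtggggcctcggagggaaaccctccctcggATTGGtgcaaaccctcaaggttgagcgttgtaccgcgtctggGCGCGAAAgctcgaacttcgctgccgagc
Mcm6: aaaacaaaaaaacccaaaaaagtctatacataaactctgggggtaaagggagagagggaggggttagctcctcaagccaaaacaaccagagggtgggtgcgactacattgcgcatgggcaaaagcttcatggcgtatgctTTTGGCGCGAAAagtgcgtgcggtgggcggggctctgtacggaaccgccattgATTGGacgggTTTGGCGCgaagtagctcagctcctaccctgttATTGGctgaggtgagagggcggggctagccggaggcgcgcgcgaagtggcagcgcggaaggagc
Orc5: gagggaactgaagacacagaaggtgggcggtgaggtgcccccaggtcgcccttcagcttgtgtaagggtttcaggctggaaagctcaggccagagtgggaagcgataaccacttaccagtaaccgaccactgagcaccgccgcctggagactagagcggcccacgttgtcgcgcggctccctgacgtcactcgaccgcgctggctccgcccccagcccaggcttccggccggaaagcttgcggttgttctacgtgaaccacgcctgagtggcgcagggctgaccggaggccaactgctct
The Clspn window held 1 E2F word and 2 CCAAT boxes, the Mcm6 window held 3 E2F words, of which the leftmost pair overlap, and 2 CCAAT boxes, and the Orc5 window held neither. A window was given for 41 of the 50 members, and 15 of them (36.6%) held the E2F word, against 4.24% of 10908 windows over tested rows. The CCAAT box stood in 23 of 41 members (56.1%) against 39% of all windows, and the CHR word (TTTGAA), known from promoters of mitotic genes, in 6 of 41 (14.6%) against 12%. The E2F word stood in 7 of the 23 windows of members that fell and in 8 of the 18 windows of members that were not called. The median GC content of the windows was 62.3% for members and 61% over all tested rows. Some windows start far from the start in the deposited table (Orc4 by 2668, Rfc1 by 2978, Orc1 by 3749 and Timeless by 6003 bases), so for these genes another promoter may be the one in use. A match is only a run of letters, and no factor's binding was measured.

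Levels of Rps19bp1 were examined first. In cKO libraries 1 to 4 it stood at 15.2, 11.8, 13.7 and 19.2 TPM, and in control libraries 1 to 4 at 40.9, 44.2, 34.7 and 40.05 TPM, so every library matched its label. The depth behind a TPM value is unknown. In each library 15336 to 15752 rows stood at 1 TPM or more. One label text speaks of cultured cortical neurons, but 8 of 10 neuronal markers were below 1 TPM in every library (Neurod1 and Neurod6 were listed at 0 in all), while 15 cardiomyocyte markers summed to between 52989 and 58088 TPM. One cKO library stood apart for the replication genes: replicate 3 held the lowest value of all 8 libraries for 42 of the 50 members, and it also had the largest mitochondrially encoded share (16.2% of TPM, against 13.2% to 14.1% in the other cKO libraries and 11.4% to 12.2% in control libraries). Control replicate 1 held the highest value for 31 members. After rescaling without mitochondrial and globin rows, 25 members and 2.56% of all rows were called lower. The members' median log2 change was then -0.28, against -0.31 for the deposited TPM. The part of the mitochondrial share in the results was not tested beyond this rescaling. The counts of members are also given without cKO replicate 3 and without control replicate 1.

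Of the 50 members, 28 fell in cKO and 0 rose (limma adjusted p under 0.05 over all tested rows), where 4.23% of all 15541 rows were called lower, 2.16% higher and 6.4% in either direction. The fitted change was below 0 for 48 members, against 55.8% of all rows, and the median log2 change of the members was -0.31, against -0.02 over all rows. In percent of the control mean, cKO levels ran from 69.4% to 103% with a median of 80.3%. In 36 members every cKO library lay below every control library, which held for 10.3% of all rows. The reverse held for 0 members and for 5.33% of all rows. These shares over all rows also apply to the counts by role below. Among the 22 members that were not called, 20 had a fitted change below 0 and 16 an unadjusted p under 0.05. The fifth percentile of the change over all rows was -0.30, and 28 of the members lay at or below it. The call counts fell when single libraries were left out, for the members and over all rows. Without control replicate 1, 13 members and 1.47% of all rows were called lower, and without control replicate 3, 14 members and 1.47%. Without cKO replicate 3, 20 members and 1.72% of all rows were called lower. The members' median change stayed between -0.34 and -0.27 whichever library was left out. With all 8 libraries, 48 members remained below 0 under each rescaling tried. The share of calls over all rows that were higher was 33.8% for the deposited TPM, but 47.8% after median-ratio scaling, 50.2% after quantile normalization and 49.5% after rescaling without mitochondrial and globin rows.

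**Figure D1:**
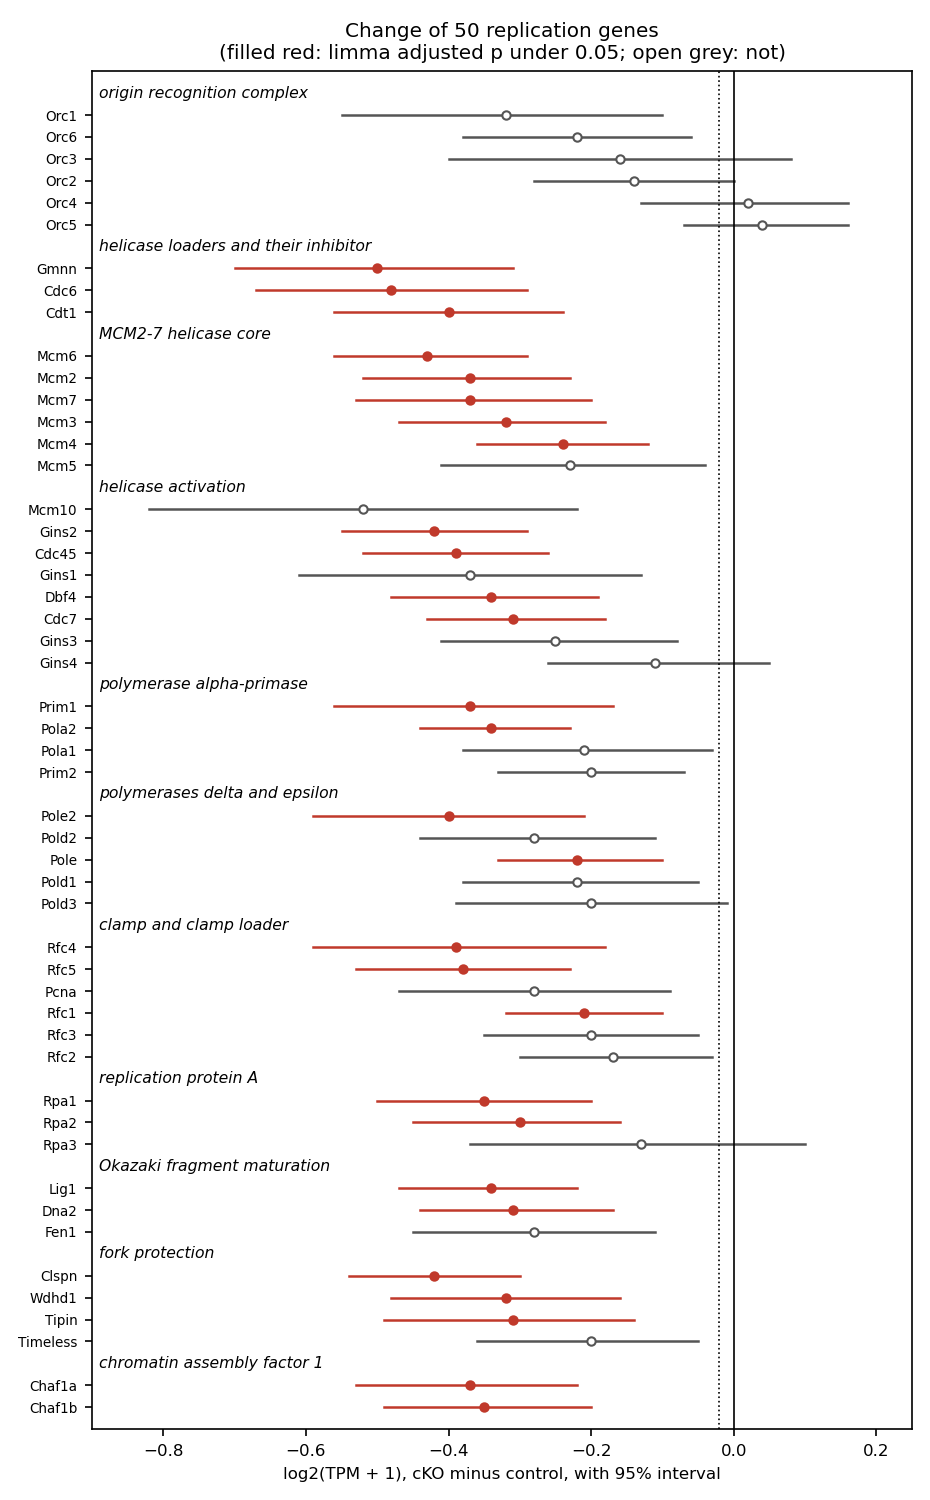
Fitted change of each of the 50 members (x axis, log2(TPM + 1), cKO minus control, with 95% interval), grouped by role. Filled red points are the 28 members with a limma adjusted p under 0.05, open grey points the 22 others, and the dotted line marks the median of all tested rows (-0.02). Only Orc4 and Orc5 lie to the right of 0.

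**Figure D2:**
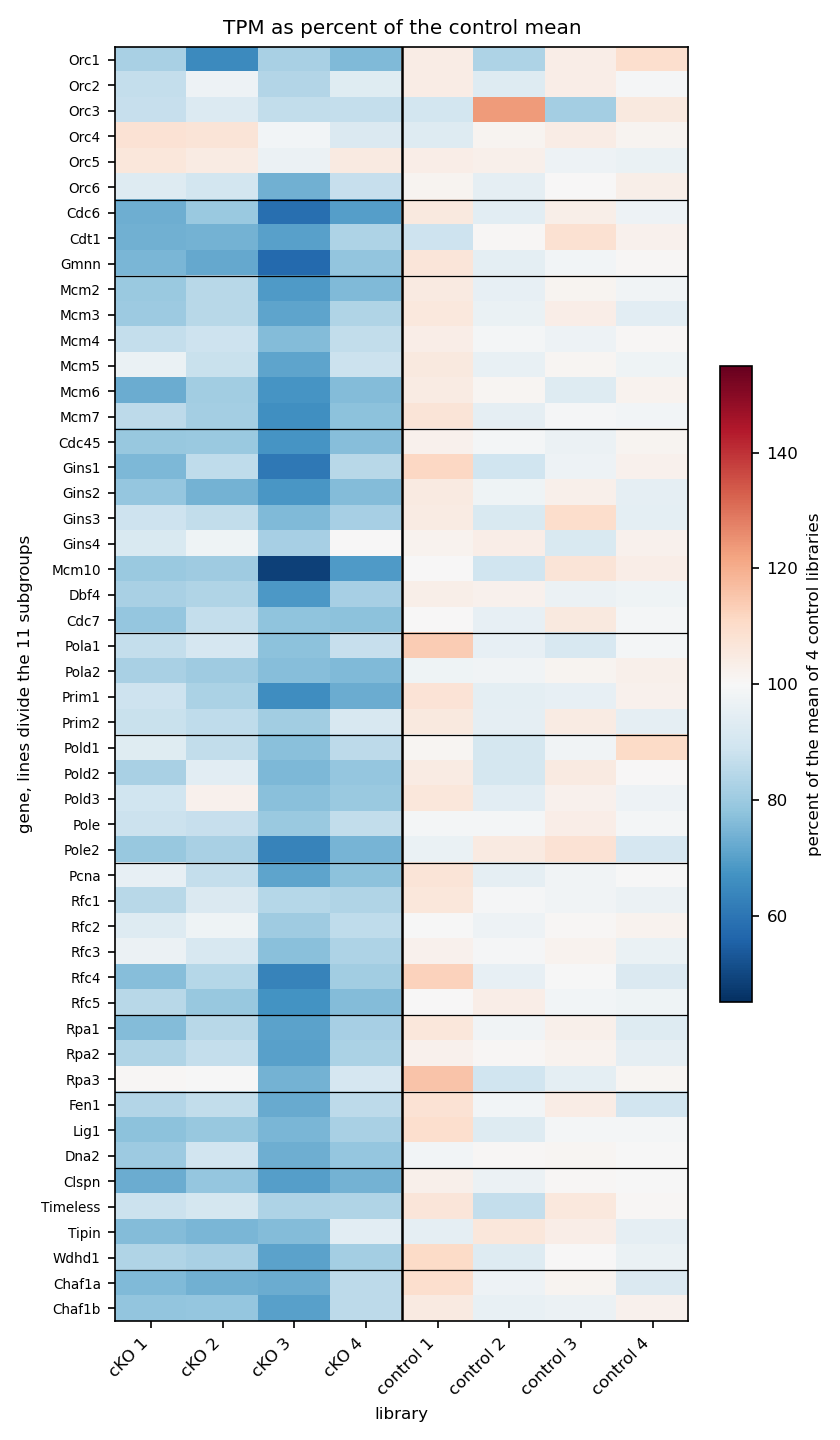
TPM of each member (rows, ordered by role) in each of the 8 libraries (columns), as percent of the mean of the 4 control libraries. Colours run from blue (below the control mean) to red (above it). Library cKO 3 is the bluest column, and Orc4 and Orc5 are the rows with little difference between groups.

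The origin recognition complex, the ring that marks origins, held no called member. Of its 6 subunits, limma called 0 lower and 0 higher, and 2 had an unadjusted p under 0.05, with a median log2 change of -0.15. Orc1 (chr4:108575705-108616030 on GRCm38, plus strand), the ATPase subunit that is best known for cell cycle dependent levels, was the scarcest at 4.74, 3.73, 4.73 and 4.35 TPM in cKO and 5.99, 4.77, 5.97 and 6.27 TPM in control. The groups did not overlap, narrowly because of control replicate 2, and the log2 change was -0.32 (95% interval -0.55 to -0.10, limma adjusted p = 0.084). Orc4 (chr2:48902824-48952902, minus strand), another ATPase-fold subunit, stood at 20.7, 20.5, 18.9 and 17.7 TPM in cKO and 17.8, 19.5, 19.9 and 19.4 TPM in control, with the groups fully mixed (log2 change 0.02, 95% interval -0.13 to 0.16). Its change was -0.01 without cKO replicate 1, cKO replicate 2 or control replicate 1. Orc5 was at 103% of control (log2 change 0.04, 95% interval -0.07 to 0.16) and Orc6, the subunit outside the ring core, at 85.9% (log2 change -0.22, limma adjusted p = 0.0976). Orc2 stood at 90.5% of control and Orc3 at 88.3%, the latter with control libraries spread from 22.9 to 34.6 TPM. On the TPM scale, which is per length, Orc6 was the most abundant subunit and Orc1 the scarcest in both groups, without overlap with their neighbours, whereas Orc3 and Orc5 in control, and Orc4 and Orc2 in both groups, overlapped.

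All 3 genes that act on helicase loading fell, to between 70.2% and 75.2% of control. Gmnn (chr13:24751845-24761937, minus strand) encodes geminin, which binds Cdt1 and blocks loading. It stood at 57.6, 55.5, 44.1 and 60.4 TPM in cKO against 82.3, 72.9, 75.9 and 77.6 TPM in control, with a fitted log2 change of -0.50 (SE 0.0892) and a limma adjusted p = 0.0128. Every cKO library was below every control library, and replicate 3 was the lowest. Cdc6 (chr11:98907709-98923942, plus strand), the ATPase that recruits the helicase to ORC, was a scarcer transcript at 12.1, 13.2, 9.70 and 11.5 TPM in cKO against 17.5, 15.6, 17.1 and 16.1 TPM in control (log2 change -0.48, SE 0.0862, limma adjusted p = 0.0135). Cdt1, which brings the helicase to Cdc6 and ORC, fell to 75.2% of control (log2 change -0.40, limma adjusted p = 0.0131). A difference in change between the loader and its inhibitor was not larger than the spread between libraries: the log2 difference between Cdt1 and Gmnn was -0.15 ± 0.14 (SD, n = 4) in cKO and -0.26 ± 0.18 in control (exact permutation p = 0.486).

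The MCM2-7 genes encode the ring subunits of the helicase, which are needed in equal numbers. Of the 6 genes, 5 fell, with a median log2 change of -0.34 over all 6. Mcm6 (chr1:128331575-128359705, minus strand) had the largest fitted fall of the 6, from 145, 140.4, 129 and 142 TPM in control to 101, 113, 93.9 and 106 TPM in cKO (log2 change -0.43, SE 0.0621, limma adjusted p = 0.00619). Mcm2 (chr6:88883474-88898780, minus strand) stood at 102, 108, 87.8 and 96.5 TPM in cKO and 134, 122, 129 and 125 TPM in control (log2 change -0.37, limma adjusted p = 0.0121). Both calls held under all 18 alternatives, and in both genes the groups lay clearly apart. Mcm7 (chr5:138164583-138172111, minus strand), whose introns host the microRNA rows Mir25, Mir93 and Mir106b, stood at 136, 129.5, 106 and 123 TPM in cKO and 170.2, 151, 158 and 156 TPM in control (log2 change -0.37, limma adjusted p = 0.0232). Mcm3 (chr1:20802966-20820312, minus strand) stood at 93.4, 98.9, 82.7 and 97.5 TPM in cKO and 124, 112, 121 and 110.1 TPM in control (log2 change -0.32, limma adjusted p = 0.0219). In both the lowest control library still lay above the highest cKO library. Mcm4 (chr16:15623897-15637400, minus strand) had the smallest change of the 5 that fell, from 91.6, 87.4, 85.7 and 88.7 TPM to 76.9, 78.4, 67.2 and 76.5 TPM (log2 change -0.24, limma adjusted p = 0.0339), and was called under 6 of 18 alternatives. Mcm5 (chr8:75109468-75128439, plus strand) was the one that missed the threshold, at 81.8, 74.2, 60.2 and 74.7 TPM in cKO and 89.4, 81.1, 85.7 and 82.7 TPM in control. Its highest cKO library lay above its lowest control library (log2 change -0.23, 95% interval -0.41 to -0.04, limma adjusted p = 0.137). The order of mean levels per length was Mcm7, Mcm6, Mcm2, Mcm3, Mcm4 and Mcm5 in both groups. Within it Mcm6 and Mcm2, Mcm2 and Mcm3, and Mcm4 and Mcm5 overlapped in each group, Mcm7 and Mcm6 overlapped in cKO, and Mcm3 lay above Mcm4 without overlap in both.

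**Figure D3:**
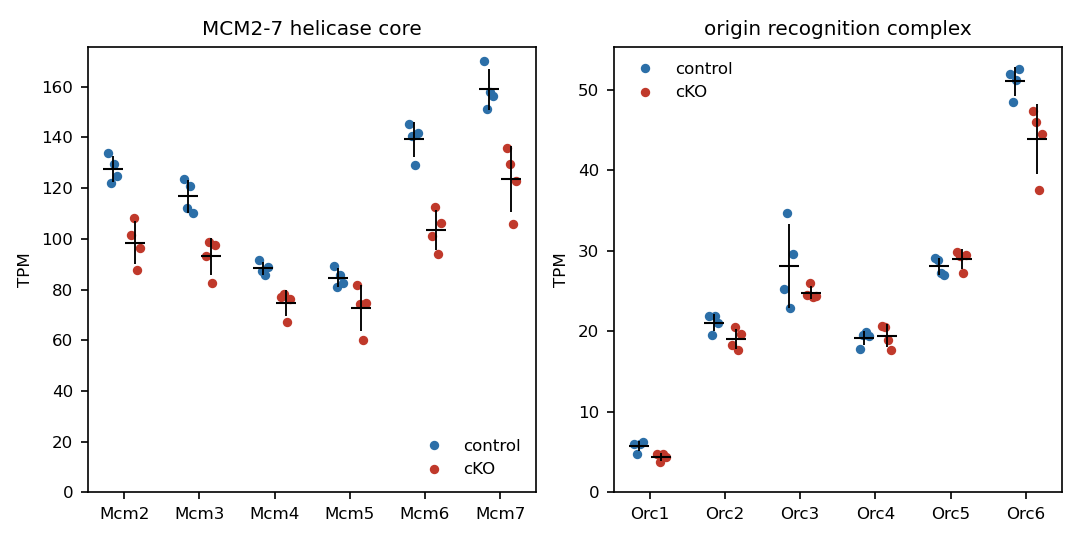
TPM (y axis, from 0) of the 6 helicase core genes (left) and the 6 origin recognition genes (right) in control (blue) and cKO (red). Points are single libraries, and the black bar and line are the mean and SD (n = 4). The helicase genes separate by group except Mcm5, while Orc2, Orc3, Orc4 and Orc5 overlap between groups.

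Of the 8 genes for helicase activation, 4 fell, and in 7 the groups did not overlap, with cKO lower. Over all rows, 4.23% were called lower, and 10.3% had no overlap with cKO lower. Gins2 (chr8:120581266-120589075, minus strand), a subunit of the GINS complex that completes the active helicase, stood at 46.5, 43.6, 39.99 and 44.99 TPM in cKO and 61.9, 57.5, 60.5 and 56.0 TPM in control (log2 change -0.42, SE 0.0577, limma adjusted p = 0.00463). Gins4 (chr8:23226610-23237668, minus strand), another subunit of the same complex, stood at 38.9, 41.5, 34.8 and 42.6 TPM in cKO and 43.4, 44.0, 39.01 and 43.5 TPM in control, with overlap (log2 change -0.11, 95% interval -0.26 to 0.05, limma adjusted p = 0.390). Gins1 (log2 change -0.37, limma adjusted p = 0.0698) and Gins3 (-0.25, limma adjusted p = 0.0793) lay between them and were not called. The log2 difference between Gins1 and Gins4 was -0.82 ± 0.10 (SD, n = 4) in cKO and -0.56 ± 0.15 in control, a difference of -0.27 (exact permutation p = 0.0571, adjusted over 17 pairs 0.324). Cdc45, the third part of the active helicase, fell to 75.7% of control (log2 change -0.39, limma adjusted p = 0.00758). The kinase Cdc7 fell to 80.3% and its activator Dbf4 to 79.0%, with log2 changes of -0.31 and -0.34 (limma adjusted p = 0.0144 and 0.0200). Mcm10, which helps the helicases start, had the lowest level relative to control of all members, 69.4%, but its cKO libraries ranged from 9.70 TPM in replicate 3 to 16.0 TPM in replicate 2, and its log2 change of -0.52 (SE 0.136) did not pass (limma adjusted p = 0.0508).

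Calls among the polymerases were divided between subunits. Of the 4 genes of polymerase alpha-primase, which starts every new strand, 2 fell. Pola2 (chr19:5940543-5964238, minus strand), its accessory subunit, stood at 36.0, 35.3, 33.4 and 33.1 TPM in cKO and 42.7, 42.9, 44.4 and 45.1 TPM in control, with little spread in either group (log2 change -0.34, SE 0.0474, limma adjusted p = 0.0054). Pola1 (chrX:93304766-93632387, minus strand), the catalytic subunit, stood at 14.3, 14.98, 12.8 and 14.4 TPM in cKO and 18.8, 15.7, 15.1 and 16.3 TPM in control. The groups did not overlap but nearly met (log2 change -0.21, limma adjusted p = 0.141). The primase subunit Prim1 fell (log2 change -0.37, limma adjusted p = 0.0385, called under 6 of 18 alternatives), whereas its partner Prim2, at 86.5% of control, did not pass (-0.20, limma adjusted p = 0.0756). Of the 5 genes of the strand-extending polymerases, the epsilon genes Pole and Pole2 fell and the delta genes Pold1, Pold2 and Pold3 did not pass. The call of Pole (limma adjusted p = 0.0383) held under only 3 of 18 alternatives and was lost under all 3 rescalings and without any 1 library. Pole2 (chr12:69201773-69228205, minus strand), the second subunit of polymerase epsilon, stood at 17.8, 18.5, 14.3 and 16.7 TPM in cKO and 21.6, 23.6, 24.3 and 20.4 TPM in control (log2 change -0.40, limma adjusted p = 0.027). The call of Pole2 held under 10 of 18 alternatives. Pold3 (chr7:100082110-100121502, minus strand), an accessory subunit of polymerase delta, stood at 30.6, 35.2, 26.5 and 27.3 TPM in cKO and 36.5, 32.3, 35.2 and 33.3 TPM in control, with overlap from cKO replicate 2 (log2 change -0.20, limma adjusted p = 0.188). The delta genes had log2 changes of -0.28 to -0.20 and the epsilon genes of -0.40 and -0.22, and the difference between the polymerases was not tested.

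Of the sliding clamp and its loader, 3 of 6 genes fell. Pcna, the clamp that tethers the polymerases, was the most abundant member, at 209 ± 27.3 TPM (SD, n = 4) in cKO and 252 ± 12.9 TPM in control. Its cKO libraries held 241, 219, 179 and 195 TPM and its control libraries 270.2, 239.8, 248 and 251 TPM, so that cKO replicate 1 lay above control replicate 2, and it was not called (log2 change -0.28, 95% interval -0.47 to -0.09, limma adjusted p = 0.082). Rfc5 (chr5:117379145-117389023, minus strand), a small subunit of the loader replication factor C, fell from 51.8, 53.6, 51.0 and 50.5 TPM to 43.8, 41.0, 34.6 and 39.4 TPM (log2 change -0.38, SE 0.0677, limma adjusted p = 0.0135). Rfc4, another small subunit, fell to 76.2% of control (limma adjusted p = 0.0383) and the large subunit Rfc1 to 86.2% (limma adjusted p = 0.0407). These calls held under 6 and 4 of 18 alternatives, and both were lost after median-ratio scaling and after quantile normalization. Rfc2 (chr5:134582690-134598328, plus strand) stood at 80.1, 84.2, 69.3 and 74.3 TPM in cKO and 86.2, 84.0, 87.0 and 88.2 TPM in control. A single pair of libraries crossed, cKO replicate 2 over control replicate 2 (log2 change -0.17, limma adjusted p = 0.129). Rfc3, at 87.0% of control, was not called either (-0.20, limma adjusted p = 0.110).

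Replication protein A coats the single strands exposed at the fork, and 2 of its 3 subunits fell. Rpa1 (chr11:75300259-75348454, minus strand), the large DNA-binding subunit, stood at 75.6, 83.9, 69.8 and 81.0 TPM in cKO and 105, 97.4, 102 and 92.0 TPM in control (log2 change -0.35, SE 0.0657, limma adjusted p = 0.0165). Rpa2 fell to 80.8% of control (log2 change -0.30, limma adjusted p = 0.0285, called under 10 of 18 alternatives). Rpa3 (chr6:8255936-8259141, minus strand), the smallest subunit, stood at 56.9, 56.3, 41.7 and 51.1 TPM in cKO and 65.2, 50.3, 53.3 and 56.9 TPM in control, and its groups mixed (log2 change -0.13, 95% interval -0.37 to 0.10, limma adjusted p = 0.491).

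On the lagging strand, Lig1 and Dna2 fell and Fen1 lay just outside the threshold. Lig1 (chr7:13277175-13311426, plus strand), the ligase that seals Okazaki fragments, stood at 65.9, 67.5, 63.6 and 70.05 TPM in cKO and 92.8, 79.1, 84.2 and 84.2 TPM in control (log2 change -0.34, SE 0.0562, limma adjusted p = 0.00949). Fen1 (chr19:10199132-10204393, minus strand), the nuclease that removes the displaced flap, stood at 36.3, 37.3, 31.2 and 37.0 TPM in cKO and 46.7, 42.6, 44.98 and 38.8 TPM in control. Its groups did not overlap, with control replicate 4 close to the cKO libraries (log2 change -0.28, limma adjusted p = 0.0539). Dna2, a nuclease and helicase for long flaps, fell to 80.4% of control (log2 change -0.31, limma adjusted p = 0.0219, called under 11 of 18 alternatives).

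Among the fork protection genes 3 of 4 fell. Clspn (chr4:126556957-126594533, plus strand) encodes claspin, which links the moving helicase to the checkpoint kinase. It had the smallest p of all members: it stood at 16.1, 17.4, 15.5 and 16.4 TPM in cKO and 22.8, 21.4, 22.3 and 22.1 TPM in control (log2 change -0.42, SE 0.0535, limma adjusted p = 0.00309). The gap between the groups was larger than the range within either. Timeless (chr10:128232063-128252941, plus strand), which forms the fork protection complex with Tipin, stood at 22.0, 22.6, 20.7 and 20.8 TPM in cKO and 26.7, 21.6, 26.5 and 25.1 TPM in control, with control replicate 2 inside the cKO range (log2 change -0.20, limma adjusted p = 0.120). Tipin fell to 80.3% of control (log2 change -0.31, limma adjusted p = 0.0413), and its call held under 4 of 18 alternatives. Wdhd1, the adaptor between the helicase and polymerase alpha, fell to 79.4% (log2 change -0.32, limma adjusted p = 0.0322, called under 8 of 18 alternatives). Both tested genes of chromatin assembly factor 1 fell. Chaf1b (chr16:93883900-93906115, plus strand), its middle subunit, stood at 33.0, 33.1, 29.4 and 36.1 TPM in cKO and 44.1, 40.2, 40.7 and 43.1 TPM in control (log2 change -0.35, SE 0.0644, limma adjusted p = 0.0161). Chaf1a, the large subunit that binds PCNA, fell to 76.8% of control (-0.37, limma adjusted p = 0.0165).

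Whether partners within a complex or step differed in their change was tested for 17 pairs by an exact two-sided permutation of the log2 difference between the partners, which cannot give a p below 0.0286. An adjusted p under 0.05 would need at least 10 of the 17 pairs at that smallest p, so the adjusted test says little about any single pair. No pair reached an adjusted p under 0.05, and 0 had an unadjusted p under 0.05. After quantile normalization Orc1 against Orc4 reached the smallest p, 0.0286 (exact permutation, adjusted 0.243). The largest difference in change was that of Orc1 against Orc4, -0.34 (exact permutation p = 0.0857, adjusted 0.364). Rfc4 against Rfc2 differed by -0.22 and Pole against Pole2 by 0.18, each with an exact permutation p of 0.0571 (adjusted 0.324). At the other end, Mcm2 against Mcm7 differed by -0.01, Chaf1a against Chaf1b by -0.02 and Rfc3 against Rfc1 by 0.01. Other pairs, such as Gins2 and Gins4, were not tested.

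A list of 39 further genes of DNA replication was read the same way. Of these, 15 fell and 0 rose, with a median log2 change of -0.23 and 37 fitted changes below 0. Over all rows, 4.23% were called lower, 2.16% were called higher and 55.8% had a fitted change below 0. Uhrf1 (chr17:56303337-56323486), which recruits the maintenance DNA methyltransferase to new DNA, fell from 111, 103, 113 and 111 TPM to 80.7, 88.1, 63.7 and 84.1 TPM (log2 change -0.47, limma adjusted p = 0.0179). Nasp, a histone chaperone (chr4:116601052-116628676), fell from 201, 187, 199.8 and 187 TPM to 156, 136, 129.6 and 166 TPM (log2 change -0.40, limma adjusted p = 0.0184). In both genes all cKO libraries lay below all control libraries. The other 13 that fell were Mcm8, Mcmbp, Mtbp, Topbp1, Pclaf, Dtl, Hells, Ssrp1, Tonsl, Rnaseh2a, Rnaseh2c, Exo1 and Top2a. The small polymerase subunits Pold4 (log2 change 0.08), Pole3 (-0.17) and Pole4 (-0.20) did not pass. The count of further genes called lower was 3 to 10 when single libraries were left out, lowest without control replicate 1. The share of all rows called lower was then 1.47% to 3.84%. Under the 3 rescalings the count was 8 or 9, where 2.45% to 2.7% of all rows were called lower. The general proliferation marker Mki67 stood at 75.4% of control, with 91.4, 93.7, 88.9 and 93.9 TPM in cKO and 128, 114, 124 and 123 TPM in control (log2 change -0.40, limma adjusted p = 0.00205).

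**Figure D4:**
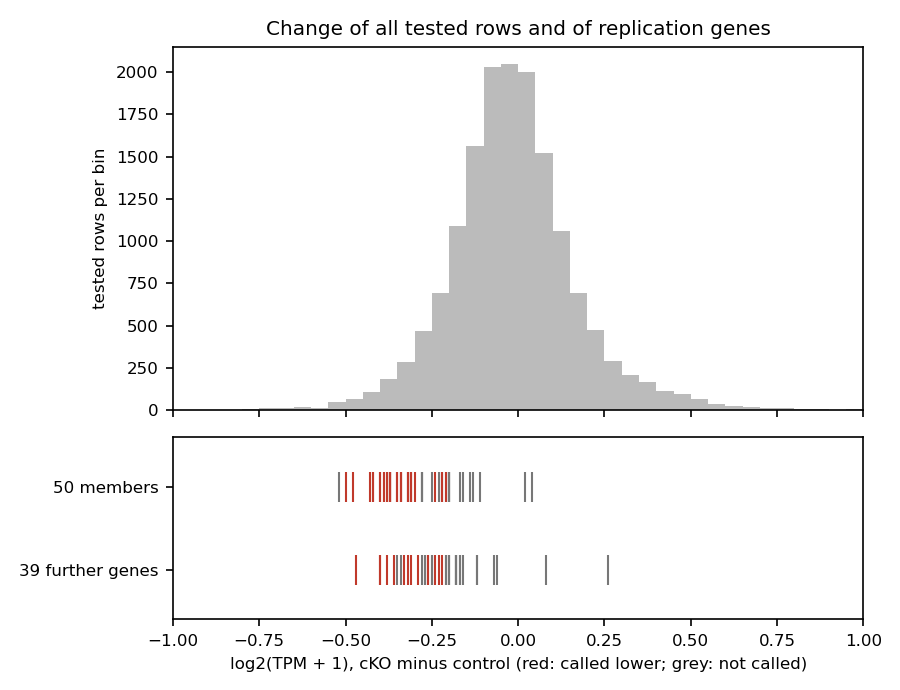
Distribution of the log2 change (x axis, cKO minus control) over all tested rows (top, rows per bin of 0.05; 35 rows lie outside the plotted range), and the changes of the 50 members and 39 further replication genes (bottom, 1 tick each, red where called lower). The members centre on -0.31, the further genes on -0.23 and all rows on -0.02.

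In bulk tissue, fewer dividing cells and less RNA of these genes per cell cannot be told apart. Summed over the 50 members, cKO libraries 1 to 4 held 2311, 2334, 1968 and 2236 TPM and control libraries held 2853, 2651, 2732 and 2699 TPM. Markers of other cells differed in the same libraries. Over all rows, 2.16% were called higher and 4.23% lower. Of 9 mesenchymal markers 4 rose and 0 fell, and their sum ran from 871 to 1060.1 TPM in cKO and from 585 to 762 TPM in control. Of 7 epicardial markers 4 rose and 0 fell (428 to 526 TPM in cKO, 364 to 425 TPM in control), and of 8 endocardial and endothelial markers 0 were called (778 to 882 TPM against 728 to 775 TPM). In these 3 lists every cKO sum lay above every control sum (exact permutation p = 0.0286 each, the smallest this test can give), and no marker of these lists was at 0. Of 15 cardiomyocyte markers 1 fell, Nkx2-5, and their sums overlapped (52989 to 55666 TPM in cKO, 53349 to 58088 TPM in control). Fitted changes were below 0 for 13 of these 15, with a median log2 change of -0.05. Of 8 macrophage markers 0 were called (69.3 to 121 TPM in cKO, 65.8 to 90.3 TPM in control). Fitted changes were above 0 for all 6 macrophage markers that were tested, with a median log2 change of 0.42. The part of these markers in the lower replication transcripts was not tested. Erythroid cells, which divide quickly at this stage, varied widely between libraries in both groups: their 12 markers summed to 2020 to 4329 TPM in cKO and 2245 to 8157 TPM in control, highest in control replicate 4, and 0 were called. In the fit 11 of the 12 erythroid markers were nevertheless below 0, with a median log2 change of -0.38. That is the same direction as the replication genes. The part of erythroid cells in the result was not tested. With the mean log2(TPM + 1) of the 12 erythroid markers as a covariate, the members' median change was -0.31. In that fit 17 members and 2.36% of all rows were called lower. The erythroid sums of the groups overlapped (exact permutation p = 0.571). Since 11 of these 12 markers leaned lower in cKO, a fit on 8 libraries separates erythroid level from group only in part. Without control replicate 4 the members' median was -0.32, and 22 members and 2.16% of all rows were called lower.

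**Figure D5:**
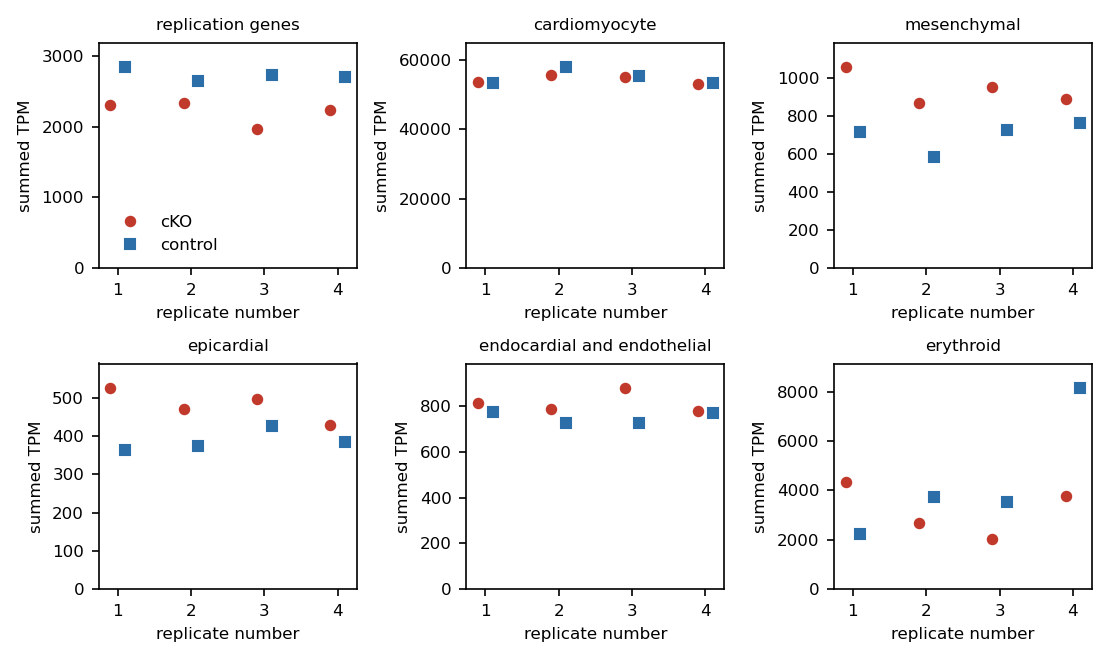
Summed TPM (y axes, each from 0) of the 50 replication genes and of 5 sets of cell type markers in cKO (red circles) and control (blue squares) libraries, by replicate number, which only names a library. The replication genes are lower in all 4 cKO libraries, mesenchymal, epicardial and endothelial markers are higher, and cardiomyocyte and erythroid markers overlap.

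Values of some members rest on rows that share sequence with others. In 24 of the 50 members the row overlaps another row of the table, and whether counting used strand is not given in the sources used here. Overlaps of at least 500 bases with rows of at least 1 TPM on average concern Orc1 (Prpf38a, 3632 bases, 52.2 TPM, and Gm12743, 15947 bases, 1.48 TPM), Orc4 (Mbd5, 3404 bases, 7.83 TPM), Orc5 (Gm15421, on the same strand, 810 bases, 7.003 TPM), Lig1 (Zswim9, 1547 bases, 7.81 TPM) and Chaf1a (Ubxn6, 982 bases, 36.3 TPM), so these values are less certain. No other row overlaps Mcm2, Mcm3, Mcm4, Mcm5, Mcm6, Cdc6, Cdt1, Gmnn, Pola2, Rfc5 or Chaf1b.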

How the data were processed

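Values are TPM that the authors deposited, 1 column per library, each summing to about 1000000 over 52778 rows. The submitters' processing notes name FastQC, Trim Galore 0.6.7, HISAT2 2.2.1, StringTie 2.2.1, featureCounts and DESeq2 on GRCm38, without roles. The annotation and strand setting are not given in the sources used here. All 50 members had the same position in the RefSeq table of GRCm38.p6. TPM keeps no depth, so precision is that between libraries. All 8 libraries carry 1 batch label.

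The 15541 rows whose TPM averaged 1 or more were log-transformed, log2(TPM + 1), and fitted with limma 3.58.1 under R 4.3.3 (lmFit, eBayes with trend, group as the only term, two-sided, Benjamini-Hochberg over all tested rows, threshold 0.05). Fold changes on this scale understate those of low genes. Subunit pairs were tested by exact permutation over 70 assignments, adjusted over 17 pairs. On simulated data for 15541 genes with 200 changed, the fit recovered 37% of changes of 0.35 and 89% of changes of 0.75, with 3.82% of calls false. The simulated noise was independent between genes, and 994 rows were called in the data, so these rates need not hold there.

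The members, lists, pairs and motifs were chosen with earlier results of these data known. Values per library are given for the member with the smallest p in each of the 11 roles, for the one with the largest p in each role of 3 or more, for Mcm2 to Mcm7, and for Pcna, added after values were seen. Promoters are those of the called members with the smallest p whose window holds an E2F word and of the members with the largest p, and that of Orc4 is left out because its window lies far from the table's start. No paired design is stated, and replicate numbers were not used as pairs. Extraction texts in the labels differ: one names dissected ventricles and a stranded mRNA kit, another cultured neurons and ribosomal RNA depletion. Figures used matplotlib 3.10.9.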

Additional observations from a re-analysis of the deposited data

Results flagged for a closer look

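Of 122 groups of 4 values examined, 9 had a highest or lowest library whose gap to the next exceeded Dixon's 95% critical value as a share of the group's range, where chance gives about 1 in 20. In cKO, Dbf4 (34.1 TPM, next 40.6) and Fen1 (31.2 TPM, next 36.3) were set apart by a low replicate 3, the library with the lowest value of 42 members. Also in cKO, replicate 2 was high for Orc3 (25.9 TPM, next 24.5), Cdc7 (26.2 TPM, next 23.7) and Rfc1 (39.5 TPM, next 36.5), and replicate 4 was high for Tipin (49.7 TPM, next 40.3). In control, replicate 3 was low for Gins4 (39.01 TPM, next 43.4) and high for Pole (22.6 TPM, next 21.5). The summed neuronal markers were low in control replicate 2 (6.19 TPM, next 12.4).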

How the results depend on the processing

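There were 18 alternatives, 8 of which leave out a library. Under each of them between 48 and 49 members had a fitted change below 0 and 0 members were called higher. The number of members called lower, 28 as reported, was 8 with no filter on low values (which tests 32491 rows), 15 with the replicate block, 17 with the erythroid covariate and 13 to 26 when single libraries were left out, and it was within 1.5 times of 28 under the other alternatives. Those called under every alternative numbered 7 (Mcm2, Mcm6, Cdc45, Gins2, Pola2, Lig1 and Clspn), and 17 members were called under no setting. The only reversals were for Orc4, at -0.01 without cKO replicate 1, cKO replicate 2 or control replicate 1 (-0.01 to 0.06 over the 8 libraries left out). The further replication genes called lower, 15 as reported, numbered 4 with no filter, 9 after median-ratio scaling, 8 after quantile normalization, 9 without mitochondrial and globin rows, 7 without a variance trend, 5 with the replicate block, 5 with the erythroid covariate and 3 to 10 when single libraries were left out. Over all rows, 994 calls became 347 with no filter, 609 without a variance trend, 420 with the replicate block, 618 with the erythroid covariate and 388 to 936 when single libraries were left out. Of all rows, 4.23% were called lower as reported, 0.637% with no filter, 2.39% without a variance trend and 1.55% with the replicate block. The share was 2.36% with the erythroid covariate and 2.45% to 2.7% under the 3 rescalings. It was 1.47% to 3.84% when single libraries were left out. Libraries with the same replicate number did not deviate together (correlations -0.0107, 0.0674, 0.0576 and -0.0891), so the block has no stated or measured pairing behind it. The cause of these shifts in the number of calls was not tested. The subunit pairs gave 0 adjusted calls under the 7 alternatives run for them, which says nothing about stability, since at least 10 pairs would have to reach the smallest p. Leaving out a library or pairing by number was not run for the pairs. Depth is unknown, so its limits cannot be given.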

Other observations

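Among the further replication genes, Chtf8, a subunit of an alternative clamp loader, had low and high libraries in both groups. It stood at 12.1, 11.5, 38.98 and 39.2 TPM in cKO libraries 1 to 4 and at 44.6, 13.95, 15.3 and 10.6 TPM in control libraries 1 to 4. The row Derpc has the same start, end and strand (chr8:106883863-106893593, GRCm38), and it was low where Chtf8 was high: 96.2, 101.7, 59.6 and 65.7 TPM in cKO and 69.5, 91.7, 103 and 101.4 TPM in control. The sum of both rows lay between 98.6 and 118 TPM in all 8 libraries. The separate values of these rows, and the log2 change of 0.26 for Chtf8 (SE 0.499, limma adjusted p = 0.799), are therefore uncertain.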
